A study of Mus musculus with 6 samples.

Results

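The genes described here are 43 genes of glucose metabolism and of the response to low oxygen, taken from a fixed list of symbols: 24 of glycolysis with its transporters and regulators, 4 of the pentose phosphate pathway and 15 of the hypoxia response. All 43 were found among 47517 annotated symbols, and 39 of them reached 1 TPM (a transcript level corrected for gene length) in at least 3 of the 6 libraries and were tested. Hk3, Eno2, Pfkfb4 and Adm did not. The libraries came from C57BL/6 mouse embryos at embryonic day 10.5 that carried the Hlf-tdTomato knock-in, a red fluorescent reporter placed in Hlf, a transcription factor gene active in blood stem cells. Blood-forming cells that were tdTomato+, c-Kit+ (a growth factor receptor) and CD45- (a leukocyte protein) were sorted either from the embryo's caudal-half region (called caudal cells, 3 libraries) or from the yolk sac (3 libraries), with 100 cells in each. All 6 libraries share the reporter allele, strain, stage and sort, and tissue is the only difference between the groups that the labels give. Whether the replicates are separate embryos or separate pools is not stated, and the p-values therefore describe only how far these libraries scatter, which may be technical.

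Glycolysis splits glucose into pyruvate in the cytosol and yields ATP without oxygen, and lactate dehydrogenase turns pyruvate into lactate so that the pathway can go on. The pentose phosphate pathway branches off after the hexokinase step and supplies NADPH and ribose. When oxygen is low, prolyl hydroxylases no longer mark the HIF alpha proteins for breakdown, and HIF then raises the transcription of many glycolytic genes. Blood stem cells are known for relying on glycolysis, and the embryo develops in low oxygen before its circulation matures.

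HIF binds DNA at a core of ACGTG or GCGTG. Both were searched on both strands in the 250 bases before each annotated start in RefSeq (GRCm38.p6), where 57 promoters of 39 members were matched. Overlapping matches, such as those on both strands of CACGTG, were counted as 1. At least 1 match lay in 45 of the 57 promoters (78.95%), against 38.6% of all 32851 promoters in the table. ACGTG was found in 42.11% of the members' promoters and 16.57% of all promoters. The members' promoters had a median GC content of 60.4%, against 52.4% for all, and both motifs hold a CpG, so the part of base composition in this excess was not tested. Some members were listed for being HIF targets, so such an excess was partly built into the list. Windows of neighbouring starts overlap, as for Eno1, Pfkm and Aldoa, and a match in the shared bases is counted in each. A match is a run of letters and was not shown to be a bound site. The 4 promoters below belong to Ldha, the most abundant member, to Pfkfb3, whose caudal values all lay above its yolk sac values, and to Slc16a1 and Pfkp, whose values lay the other way round, though none of the 3 passed the test of the tissues. They are written 5′ to 3′ on the strand of the gene, with matches in capitals, and where a gene has 2 promoters the one with more matches is shown.
Ldha: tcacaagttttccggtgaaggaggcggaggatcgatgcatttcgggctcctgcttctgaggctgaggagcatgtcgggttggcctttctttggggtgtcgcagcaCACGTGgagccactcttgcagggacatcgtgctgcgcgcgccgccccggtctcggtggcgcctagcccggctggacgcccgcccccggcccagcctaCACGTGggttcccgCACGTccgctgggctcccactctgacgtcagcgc
Pfkfb3: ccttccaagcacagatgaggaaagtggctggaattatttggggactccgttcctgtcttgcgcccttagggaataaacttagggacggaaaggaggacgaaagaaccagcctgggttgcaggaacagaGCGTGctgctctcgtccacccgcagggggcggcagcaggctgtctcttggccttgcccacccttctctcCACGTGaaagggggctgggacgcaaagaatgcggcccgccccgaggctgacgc
Slc16a1: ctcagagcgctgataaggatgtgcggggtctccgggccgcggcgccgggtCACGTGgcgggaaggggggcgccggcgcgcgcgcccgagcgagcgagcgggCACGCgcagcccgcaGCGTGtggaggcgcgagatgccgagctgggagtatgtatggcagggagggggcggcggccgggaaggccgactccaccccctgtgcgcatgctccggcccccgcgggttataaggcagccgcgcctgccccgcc
Pfkp: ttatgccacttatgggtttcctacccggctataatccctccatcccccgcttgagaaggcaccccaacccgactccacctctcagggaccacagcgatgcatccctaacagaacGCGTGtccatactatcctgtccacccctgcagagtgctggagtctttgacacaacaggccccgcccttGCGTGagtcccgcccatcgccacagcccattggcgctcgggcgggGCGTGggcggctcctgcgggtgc
The Ldha sequence (chr7:46845554-46845803, plus strand) holds 3 separate matches, as do those of Slc16a1 (chr3:104638414-104638663, plus strand) and Pfkp (chr13:6648772-6649021, minus strand). That of Pfkfb3 (chr2:11502091-11502340, minus strand) holds 2. Only 7 of the 57 promoters (12.28%) held 3 or more, against 4.557% of all promoters.

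The libraries differed in the levels of marker genes of other cell types, and whether these transcripts came from other cells or from the sorted cells was not tested. Yolk sac endoderm is the epithelial layer around the yolk sac vessels, and the summed level of its 10 markers was 20.5 to 31.0 TPM in the caudal cells. In the yolk sac cells replicate 1 had 714 TPM, replicate 2 had 12670 TPM and replicate 3 had 13.1 TPM. Afp, the alpha-fetoprotein gene, stood at 312, 6114 and 0.93 TPM in these 3 libraries and at 0, 0.051 and 0.054 TPM in the caudal ones. Markers of primitive red cells (7 genes) summed to 1601 TPM in yolk sac replicate 2 and to between 5.54 and 16.4 TPM in the other 5 libraries. The 7 genes listed for the sorted cells were Hlf, Kit, Ptprc, Runx1, Cd34, Myb and Gfi1. They summed to 585 to 770 TPM in the caudal cells. In the yolk sac cells they summed to 555 and 490 TPM in replicates 1 and 3 and to 249 TPM in replicate 2. None was at 0 in any library. Gfi1 stood at 18.5 to 29.4 TPM in the caudal cells and at 0.88 to 2.33 TPM in the yolk sac cells. Hlf, Kit and Cd34 were also higher in every caudal library, while Ptprc, Runx1 and Myb overlapped. Ptprc encodes CD45, which the sort selected against, and its transcript stood at only 2.31 to 4.72 TPM. Endothelial markers (6 genes) summed to 252 to 336 TPM in the caudal cells and 52.6 to 149 TPM in the yolk sac cells. Mesenchymal markers (5 genes) summed to 31.1 to 40.4 TPM and 3.70 to 6.16 TPM, and macrophage markers (5 genes) to 5.98 to 8.48 TPM and 9.49 to 11.9 TPM. The first gap was that of Acta2 (26.1 to 36.6 TPM against 1.07 to 2.57 TPM) and the second mainly that of Mrc1 (0.124 to 0.242 TPM against 2.53 to 3.12 TPM). Cx3cr1 was weak but also higher in every yolk sac library (0.485 to 0.751 TPM against 0.859 to 0.962 TPM). The other mesenchymal genes, Csf1r and Adgre1 overlapped, and C1qa was listed at 0 in every library. The part of all these markers in the differences below was not tested beyond leaving out libraries. In such bulk samples, fewer cells of a type and less RNA per cell cannot be told apart.

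Ldha, which encodes the muscle-type subunit of lactate dehydrogenase, was the most abundant member in every library. It stood at 959, 887 and 856 TPM in the caudal cells and at 1113, 929 and 908 TPM in the yolk sac cells. Its lowest value exceeded the highest of the next gene by listed TPM, Aldoa (520 TPM). Aldoa (aldolase A, which splits the 6-carbon sugar), Pkm (the pyruvate kinase gene of most tissues) and Eno1 (enolase) followed with means of 307, 269 and 258 TPM over the 6 libraries. Their ranges overlapped, so their order is not set. The lowest value of Eno1, 214 TPM, was above the highest of Gpi1 (glucose phosphate isomerase, 203 TPM), though not of Tpi1. Next came Gpi1 and Tpi1 (triose phosphate isomerase), with means of 177 and 175 TPM and overlapping ranges. Then Tkt, Pgam1, Slc2a3, Slc2a1, Pgk1 and Slc16a1 lay between 80.9 and 111.4 TPM on average, where the mean of Slc2a3 rests on yolk sac replicate 2 (421 TPM, against 25.0 to 58.8 TPM in the other libraries). Pkm stood at 309, 305 and 243 TPM in the caudal cells and 285, 198 and 274 TPM in the yolk sac cells. Its isoforms are not separated in the files. The 18 glycolytic enzyme genes together summed to 2182 to 2753 TPM in the caudal cells and 2296 to 2734 TPM in the yolk sac cells, so the groups overlapped.

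**Figure D1:**
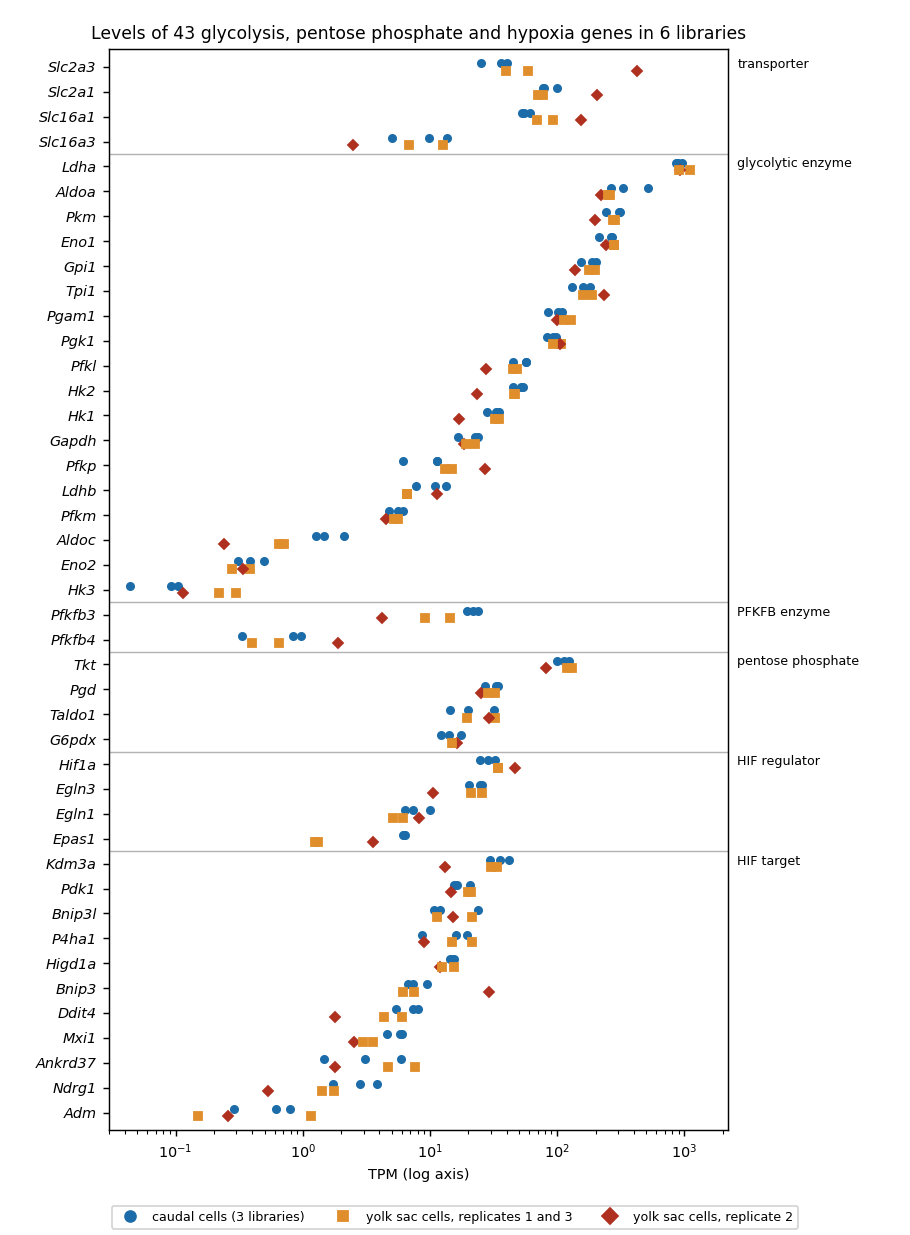
TPM of the 43 genes (log axis) by role, with each library as a point: caudal cells as circles, yolk sac replicates 1 and 3 as squares and yolk sac replicate 2 as diamonds. Ldha lies highest, between 856 and 1113 TPM, and yolk sac replicate 2 lies apart for genes such as Slc2a3 (421 TPM).

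Most enzyme steps were dominated by 1 isoenzyme, and in 8 of 11 families the same gene led in all 6 libraries. Ldha made up 98.46% to 99.39% of lactate dehydrogenase TPM, with Ldhb, the heart-type subunit, at 6.54 to 13.4 TPM. The level of Ldha was 66.0 to 168.1 times that of Ldhb. Pkm made up nearly all of the pyruvate kinase TPM, except in yolk sac replicate 2, where its share was 96.40% and Pklr, the liver and red cell enzyme, was at 3.602%. Pgam1 held 96.60% to 99.23% of phosphoglycerate mutase and Eno1 76.84% to 78.66% of enolase. The rest of enolase was mostly Eno1b, an intronless copy whose reads may be shared with Eno1, and the neuronal Eno2 was below 0.5 TPM in every library.

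Hexokinase traps glucose in the cell, and its transcripts came from Hk2, the insulin-responsive and inducible enzyme, and from Hk1. Hk1 stood at 35.0, 32.8 and 27.9 TPM in the caudal cells and at 32.6, 16.9 and 34.7 TPM in the yolk sac cells, and was below Hk2 in all 6 libraries. Hkdc1, a hexokinase relative that is not a member, was at 47.4 TPM in yolk sac replicate 2 and thus above both there. Hk3, known from myeloid cells, stood at 0.044 to 0.104 TPM in the caudal cells and 0.115 to 0.30 TPM in the yolk sac cells, too low to be tested. Pfkl, the liver-type phosphofructokinase of the committed step, led its family with 76.48%, 76.97% and 80.40% in the caudal cells, against 71.98%, 46.97% and 68.85% in the yolk sac cells, with no overlap. Pfkp, the platelet type, had 11.09% to 15.48% in the caudal cells, against 19.68%, 45.43% and 23.13% in the yolk sac cells. The low share of Pfkl and the high one of Pfkp belonged to yolk sac replicate 2, the library with the highest endoderm and red cell marker levels.

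The HIF alpha subunits also differed in their make-up. Hif1a, the broadly expressed subunit, held 57.45%, 50.67% and 58.07% of HIF alpha TPM in the caudal cells, against 68.01%, 79.61% and 69.91% in the yolk sac cells. Epas1, which encodes HIF-2 alpha and is known from endothelium, held 11.19%, 10.69% and 14.91% against 2.454%, 6.026% and 2.678%. Hif3a made up 14.36% to 38.64%. Among glucose transporters, Slc2a1 led in both yolk sac replicate 1 and 3 and all caudal libraries, while Slc2a3 had the higher mean only through yolk sac replicate 2. The share of the leading gene was compared between the tissues in each of the 11 families by an exact two-sided permutation test, for which 0.1 is the smallest p that 3 against 3 libraries allow. That p was reached in 5 families (phosphofructokinase, phosphoglycerate mutase, enolase, glucose transporters and HIF alpha), each with a Benjamini-Hochberg adjusted exact p of 0.22, so no family passed and none could. The leading gene was taken as the one with the highest mean. For the glucose transporters the gene compared was therefore Slc2a3, which led only in yolk sac replicate 2. The difference in share was 15.35 percentage points toward the caudal cells for Pfkl (7.53 points without yolk sac replicate 2) and 17.12 points toward the yolk sac cells for Hif1a.

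**Figure D2:**
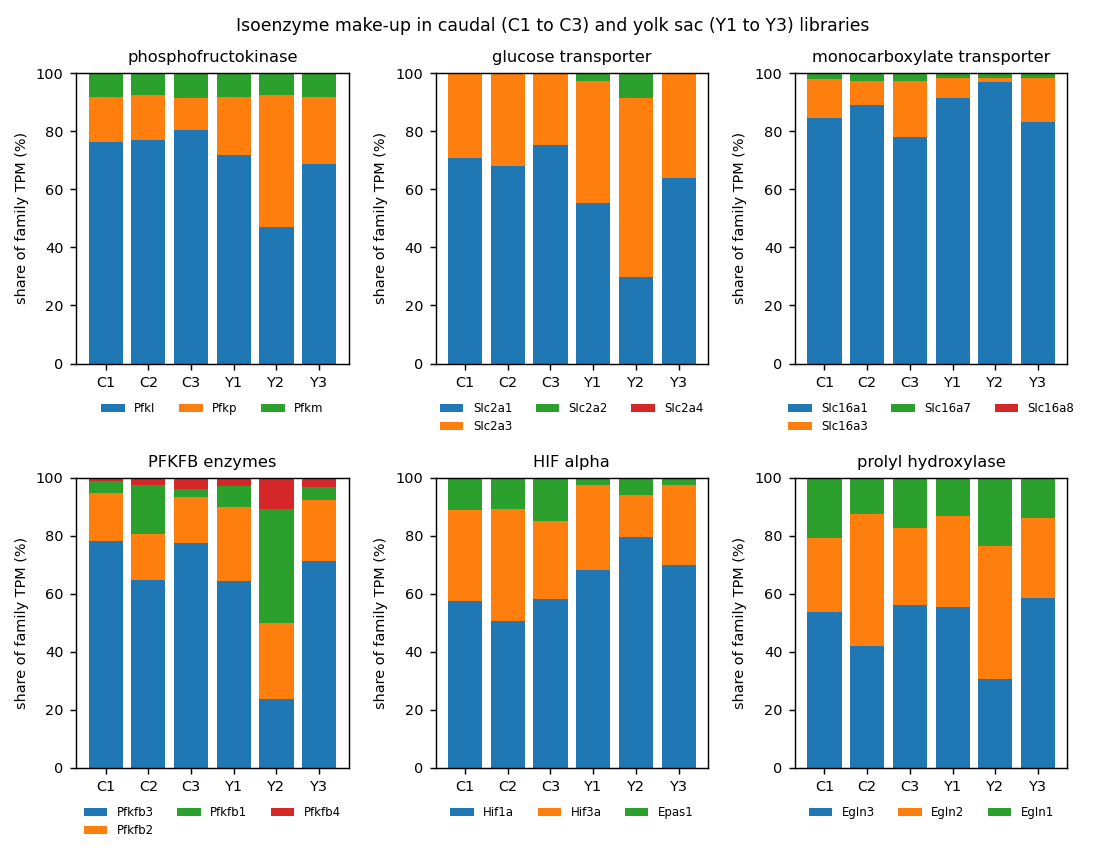
Share of each gene in the summed TPM of its family (percent, stacked bars) for 6 families in caudal libraries C1 to C3 and yolk sac libraries Y1 to Y3. Yolk sac replicate 2 (Y2) stands apart, with Pfkp at 45.43% of phosphofructokinase and Slc2a3 at 61.51% of the glucose transporters, while in the HIF alpha panel all 3 yolk sac libraries have a smaller Epas1 share.

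Several steps have near-identical copies elsewhere in the genome, which affects what their levels mean. Of the 43 members, 12 had at least 1 annotated gene elsewhere with 95% identity or more over 200 bases or more of transcript. Gapdh, often used as a reference gene, stood at only 16.7 to 23.8 TPM, and its 76 copies, 73 of them pseudogenes, summed to 366 to 477 TPM. The copies thus held 1976% to 2446% of the TPM listed for the gene. Eno1 had 3 copies that summed to 56.69% to 62.21% of its own TPM, Pgk1 (phosphoglycerate kinase) 2 copies with 52.19% to 64.36%, and Pgam1 1 copy with 50.0% to 56.71%. For Pkm the share was 18.46% to 19.97% and for Ldha only 0.6423% to 0.9018%. How reads that fit several places were assigned is not given in the sources used here, so the levels of these genes, and their ranks among the members, are uncertain. With copies added, Gapdh summed to 382 to 500 TPM, and its means were 455 TPM in the caudal cells and 475 TPM in the yolk sac cells. Eno1 with its copies had means of 398 and 419 TPM. Aldoa, which had no such copy, had means of 370 and 244 TPM.

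**Figure D3:**
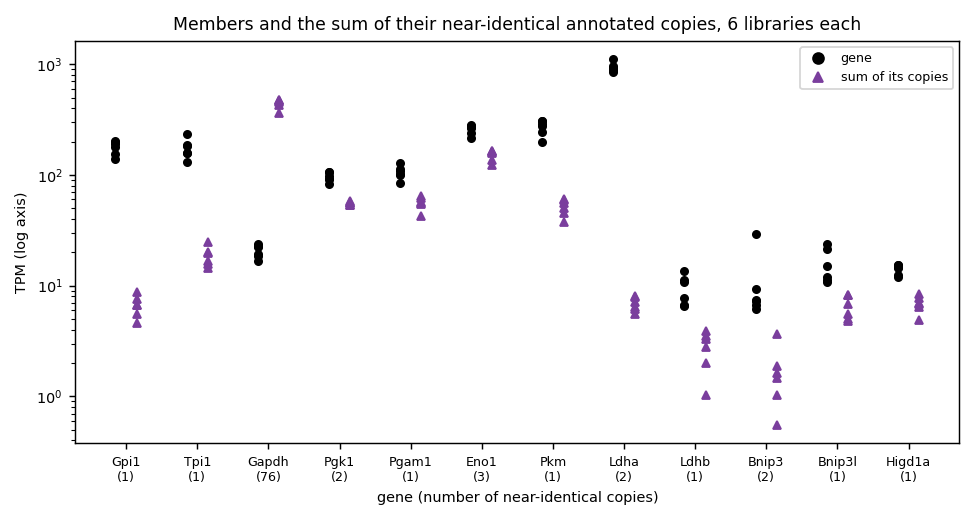
TPM (log axis) of the 12 members that have near-identical copies (circles) and of the sum of those copies (triangles), with 1 point per library and the number of copies in brackets. Gapdh is the only one of the 12 whose copies lie above the gene, at 366 to 477 TPM against 16.7 to 23.8 TPM.

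The tissues were then compared gene by gene, with limma on log2(TPM + 1) over all 16436 tested genes and Benjamini-Hochberg adjustment over all of them. None of the 39 tested members passed an adjusted p of 0.05 by limma, against 0.383% of all tested genes, 0.347% higher in the caudal cells and 0.0365% higher in the yolk sac cells. At an unadjusted p under 0.05, 5 members were higher in the caudal cells and 2 in the yolk sac cells, where the shares over all genes were 7.65% and 1.98%. The difference was positive (caudal above yolk sac) for 22 of 39 members, or 56.41%, against 62.0% of all genes. Their median difference was 0.09, as was the median over all tested genes. The values of 5 members did not overlap with the caudal cells higher (11.5% of all genes) and those of 3 did not overlap with the yolk sac cells higher (4.14% of all genes). Without yolk sac replicate 2 these counts were 7 and 5, against 14.7% and 10.2% of all genes, and 1 member, Epas1, passed the limma test (0.335% of all genes higher in the caudal cells). With a weight estimated for each library, 5 members passed, all higher in the caudal cells (4.71% of all genes, with 1.11% higher in the yolk sac cells): Aldoa, Aldoc, Ldhb, Epas1 and Mxi1. These weights were 4.44 for caudal replicate 2 and 3.24 for yolk sac replicate 3, against 0.23 to 0.83 for the other 4 libraries, so the calls rest mostly on 1 library of each tissue.

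**Figure D4:**
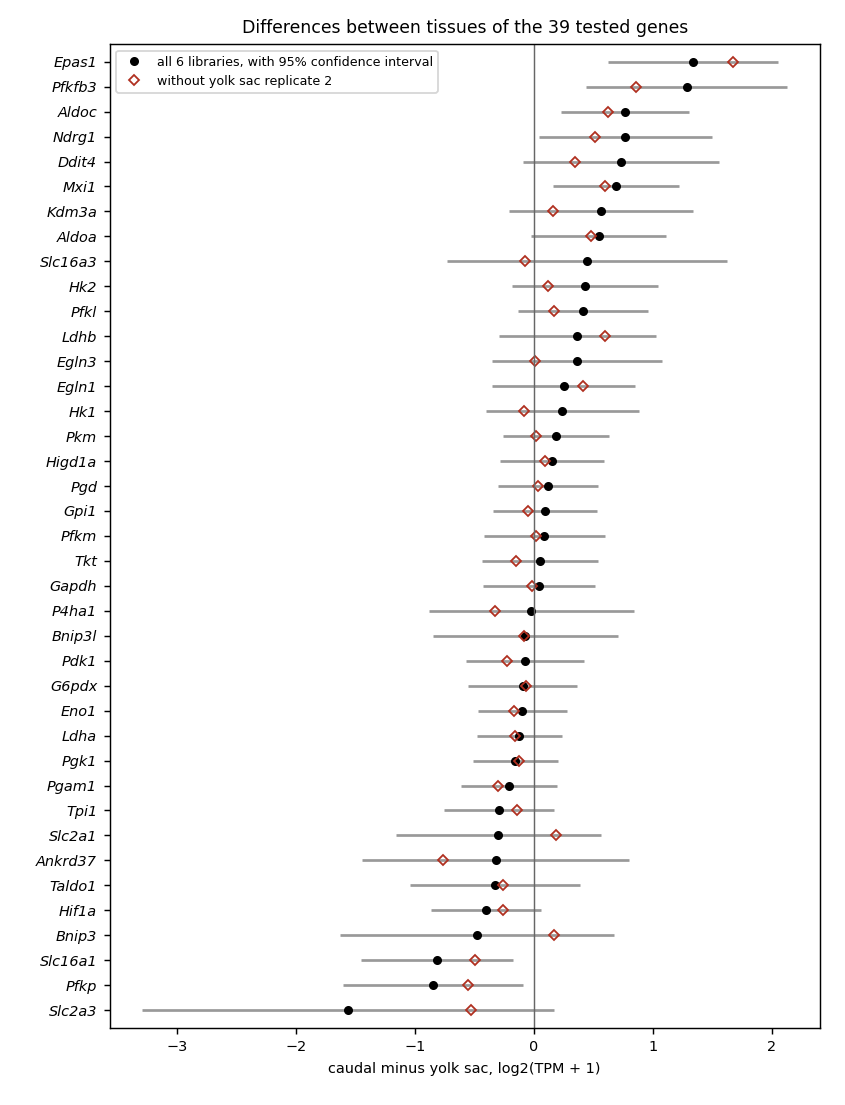
Difference of each of the 39 tested genes, caudal minus yolk sac in log2(TPM + 1) units, with all 6 libraries (filled circles, 95% confidence intervals as lines) and without yolk sac replicate 2 (open diamonds). Epas1 and Pfkfb3 lie highest at 1.34 and 1.28, and Slc2a3 lowest at -1.56, where leaving out that library gives -0.53.

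Transporters set the entry of glucose and the exit of lactate. Slc2a3, the high-affinity glucose transporter GLUT3, stood at 40.2, 36.3 and 25.0 TPM in the caudal cells and at 58.8, 421 and 39.8 TPM in the yolk sac cells. Yolk sac replicate 2 alone was far above the rest, and the groups overlapped. The log2 difference was -1.56 (SE 0.75, limma adjusted p = 0.568) with all libraries and -0.53 without that library. Slc2a1, which encodes GLUT1, stood at 99.2, 78.1 and 77.2 TPM in the caudal cells and 77.6, 205 and 70.5 TPM in the yolk sac cells. Its difference of -0.30 (limma adjusted p = 0.835) turned to 0.18 without yolk sac replicate 2.

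Slc16a1, the monocarboxylate transporter MCT1, which carries lactate, stood at 61.3, 53.3 and 54.5 TPM in the caudal cells and 92.0, 155 and 69.3 TPM in the yolk sac cells. All 3 yolk sac libraries were above all 3 caudal ones. The log2 difference was -0.81 (95% confidence interval -1.45 to -0.18, limma adjusted p = 0.393), and -0.50 without yolk sac replicate 2. Slc16a3, the lactate exporter MCT4, was lower and scattered, at 9.75, 5.02 and 13.5 TPM in the caudal cells and 6.84, 2.49 and 12.6 TPM in the yolk sac cells. Slc16a1 lies on chromosome 3 (104638668 to 104658462, GRCm38) and Slc2a3 on chromosome 6 (122727809 to 122801640).

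Among the 16 tested genes of glycolytic enzymes, 10 had positive and 6 negative differences, between -0.84 and 0.77, and limma's adjusted p lay between 0.323 and 0.964. Pfkp stood at 11.3, 11.4 and 6.17 TPM in the caudal cells and 13.2, 26.8 and 15 TPM in the yolk sac cells. Its yolk sac values were all higher, though yolk sac replicate 1 was close to the caudal libraries. The log2 difference was -0.84 (SE 0.33, limma adjusted p = 0.469), and -0.55 without yolk sac replicate 2. Aldoc, the brain-type aldolase, was weak, at 1.45, 2.10 and 1.27 TPM against 0.71, 0.24 and 0.65 TPM, with a difference of 0.77 (SE 0.23, limma adjusted p = 0.323). Aldoa stood at 328, 520 and 263 TPM in the caudal cells and 259, 222 and 250 TPM in the yolk sac cells. The groups were only just apart, and caudal replicate 2 was far above the other libraries. Its difference was 0.55 (SE 0.25, limma adjusted p = 0.539), and 0.27 without caudal replicate 2. Exons of Aldoa overlap those of Fam57b and exons of Pfkp those of Pitrm1.

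For 4 of the abundant enzymes the intervals bounded the difference closely. The 95% confidence interval was -0.48 to 0.24 for Ldha, -0.47 to 0.27 for Eno1, -0.26 to 0.63 for Pkm and -0.51 to 0.20 for Pgk1, on the log2(TPM + 1) scale. A difference of 1 on that scale lies outside each of these 4 intervals. The interval of Aldoa, which had a higher mean level than Pkm, Eno1 and Pgk1, was wider. It ran from -0.02 to 1.11 and included a difference of 1. Hk2 stood at 52.0, 53.4 and 44.7 TPM in the caudal cells and 46.3, 23.6 and 45.3 TPM in the yolk sac cells, and Pfkl at 56.8, 56.5 and 44.7 TPM against 48.3, 27.7 and 44.6 TPM. Both were low in yolk sac replicate 2, and their differences of 0.43 and 0.41 became 0.12 and 0.17 without it. Gpi1, Pfkm, Tpi1, Gapdh, Pgam1, Hk1 and Ldhb had differences between -0.29 and 0.37 with overlapping groups.

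Pfkfb3 encodes an enzyme that makes fructose 2,6-bisphosphate, an activator of phosphofructokinase. It stood at 23.6, 21.8 and 19.6 TPM in the caudal cells and at 9.11, 4.15 and 14.4 TPM in the yolk sac cells. Every caudal library was above every yolk sac library, and yolk sac replicate 2 was lowest. The log2 difference was 1.28 (95% confidence interval 0.44 to 2.13, limma adjusted p = 0.285), and 0.86 without that library. Over 15 alternative settings of the test the difference stayed between 0.56 and 1.65 and the adjusted p between 0.0775 and 0.831. Among the PFKFB enzymes Pfkfb3 held 64.72% to 78.05% in the caudal cells, against 64.24%, 23.80% and 71.15% in the 3 yolk sac libraries, of which replicate 2 alone was led by another gene, Pfkfb1 (39.34%). Its relative Pfkfb4 was at 0.33 to 1.87 TPM and was not tested. Pfkfb3 lies on chromosome 2 (11471433 to 11554077, GRCm38).

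None of the 4 pentose phosphate genes separated the tissues, and their values overlapped. G6pdx, the entry enzyme, stood at 12.3 to 17.5 TPM in the caudal cells and 14.9 to 16.3 TPM in the yolk sac cells, and Pgd, the next NADPH-producing enzyme, at 27.3 to 34.0 TPM and 25.3 to 32.4 TPM. Tkt, transketolase, which links the pathway back to glycolysis, was the most abundant of the 4 at 98.9 to 124.8 TPM and 81.2 to 131.2 TPM. Taldo1, transaldolase, stood at 14.5 to 31.7 TPM and 19.5 to 32.6 TPM. Their differences lay between -0.32 and 0.12, with limma adjusted p between 0.784 and 0.959. The widest interval was that of Taldo1, from -1.04 to 0.39.

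Of the regulators of the oxygen response, Epas1 had the smallest p of all members. It stood at 6.37, 6.07 and 6.29 TPM in the caudal cells and at 1.24, 3.54 and 1.30 TPM in the yolk sac cells. The caudal values lay close together and above all yolk sac values, of which replicate 2 was the highest. The log2 difference was 1.34 (SE 0.31, 95% confidence interval 0.63 to 2.05, limma adjusted p = 0.17) and did not pass. Without yolk sac replicate 2 it was 1.67 and passed (adjusted p = 0.034), and over 14 alternatives the adjusted p was between 0.00299 and 0.464, with 2 past the threshold. Endothelial markers were also higher in the caudal cells. Among them, Cdh5 (VE-cadherin) stood at 89.3 to 112.4 TPM there and at 10.5 to 20.9 TPM in the yolk sac cells. Within the yolk sac cells the order differed, and replicate 2 had the lowest endothelial sum but the highest Epas1 value. That sum was 52.6 TPM, against 149 and 114 TPM in replicates 1 and 3. The part of the endothelial markers in the Epas1 difference was not tested.

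Hif1a stood at 32.7, 28.8 and 24.5 TPM in the caudal cells and 34.4, 46.7 and 34.1 TPM in the yolk sac cells. The groups were narrowly apart in the direction opposite to Epas1. The log2 difference was -0.40 (SE 0.20, limma adjusted p = 0.583), and -0.26 without yolk sac replicate 2. The prolyl hydroxylase genes, whose products mark HIF alpha for breakdown, overlapped between the tissues. Egln1 was at 6.32 to 10.02 TPM in the caudal cells and 5.07 to 8.20 TPM in the yolk sac cells. Egln3, itself a HIF target, was at 20.3 to 25.6 TPM and at 25.6, 10.6 and 21.1 TPM. Hif1a lies on chromosome 12 (73901375 to 73947530) and Epas1 on chromosome 17 (86753700 to 86833410). Exons of Hif1a overlap those of Gm15283 and Gm49321.

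**Figure D5:**
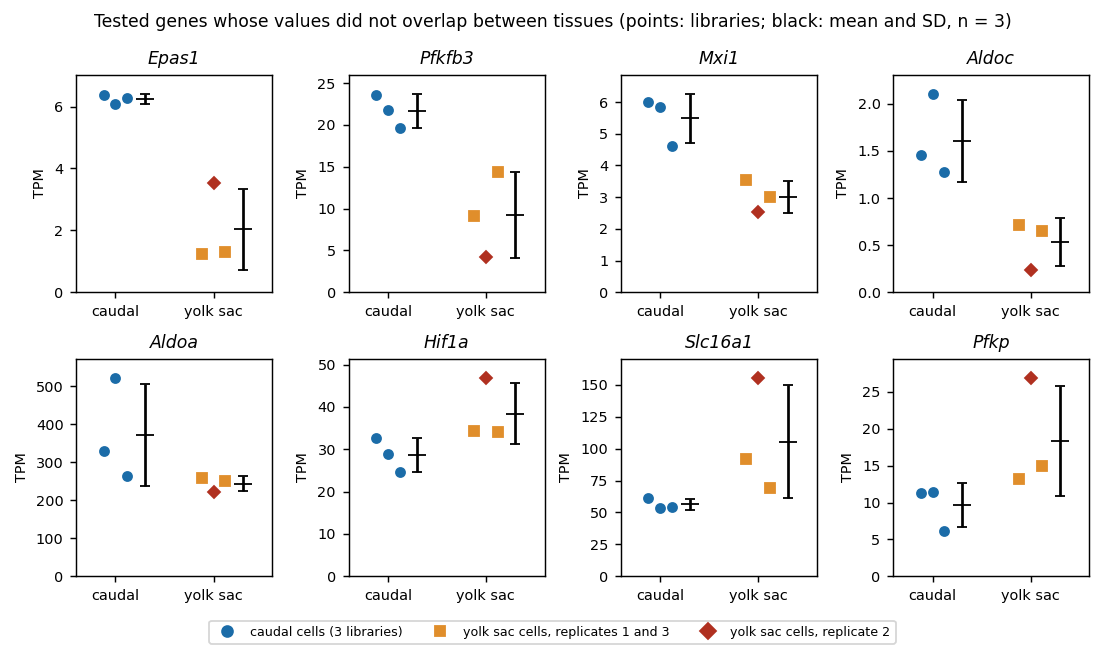
TPM of the 8 tested genes whose values did not overlap between the tissues, with each library as a point and the mean and SD (n = 3) in black; each axis starts at 0. Epas1, Pfkfb3, Mxi1, Aldoc and Aldoa were higher in the caudal cells, and Hif1a, Slc16a1 and Pfkp in the yolk sac cells.

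The 10 tested HIF target genes were split, with 5 positive and 5 negative differences and a median of 0.07. Their 11 listed members summed to 149, 109 and 118 TPM in the caudal cells and 135, 99.8 and 114 TPM in the yolk sac cells. Mxi1, an antagonist of Myc, stood at 6.00, 5.84 and 4.61 TPM in the caudal cells and 3.54, 2.53 and 2.99 TPM in the yolk sac cells. The groups did not overlap, and the log2 difference was 0.69 (SE 0.23, limma adjusted p = 0.378). Ndrg1, a stress-responsive gene, was at 2.83, 1.71 and 3.84 TPM against 1.40, 0.53 and 1.77 TPM (difference 0.77, limma adjusted p = 0.499). Exons of Ndrg1 and Mxi1 overlap those of other annotated genes.

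Bnip3, which acts in the removal of mitochondria, stood at 9.39, 6.69 and 7.32 TPM in the caudal cells and 7.42, 29.1 and 6.16 TPM in the yolk sac cells. Its value in yolk sac replicate 2 was 3.92 times that of the next yolk sac library, and its difference turned from -0.48 to 0.17 without that library. Kdm3a, a histone demethylase, was the most abundant target, at 42.0, 29.8 and 35.5 TPM against 29.9, 13.1 and 33.4 TPM. Ddit4, an inhibitor of mTOR signalling, stood at 8.04, 5.42 and 7.31 TPM against 4.37, 1.78 and 6.06 TPM. Ankrd37, an ankyrin repeat gene, was scattered, at 5.88, 3.08 and 1.48 TPM against 7.61, 1.79 and 4.66 TPM. Of the 10 tested targets, 6 (Kdm3a, Ddit4, Ndrg1, Mxi1, Pdk1 and Higd1a) had their lowest value of the 6 libraries in yolk sac replicate 2, and 1, Bnip3, had its highest there. This was not particular to the targets, since 8 of 16 tested glycolytic enzyme genes and 2 of 4 pentose phosphate genes were also lowest there. The share over all genes was not counted.

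Pdk1, which encodes a kinase that inhibits pyruvate dehydrogenase, was at 15.5 to 20.6 TPM in the caudal cells and 14.6 to 21.2 TPM in the yolk sac cells. It was not the leading gene of its family, in which Pdk3 held 54.66% to 64.81%. Higd1a, a mitochondrial protein gene, was at 14.4 to 15.4 TPM and 12.1 to 15.3 TPM. P4ha1, a collagen hydroxylase, was at 8.61 to 19.7 TPM and 8.90 to 21.5 TPM, and Bnip3l, a relative of Bnip3, at 10.8 to 23.9 TPM and 11.3 to 21.4 TPM. Adm, the gene of the vasodilator adrenomedullin, was at 0.15 to 1.16 TPM and was not tested.

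Other genes of these pathways were read from 4 lists of 100 genes, of which 78 were tested and none passed limma's test. At an unadjusted p under 0.05, 4 were higher in the caudal cells and 4 in the yolk sac cells, and 44 of 78 differences were positive (56.41%), where the shares over all tested genes were 7.65%, 1.98% and 62.0%. Got1, an aspartate aminotransferase, was at 13.2, 4.76 and 10.5 TPM against 24.5, 38.6 and 19.0 TPM (limma adjusted p = 0.23). Fbp2, the muscle fructose bisphosphatase, was at 0.13, 0.50 and 0.27 TPM against 3.84, 29.7 and 1.87 TPM (limma adjusted p = 0.301), again highest in yolk sac replicate 2. Dlat, a subunit of pyruvate dehydrogenase, was at 9.51, 9.32 and 9.15 TPM against 18.7, 11.5 and 15.8 TPM (limma adjusted p = 0.422). All 3 had every yolk sac library above every caudal library, but they were chosen by their small p. Of the 32 tested genes in their list, glycolysis and pyruvate, 4 lay so and 1 the other way. The shares over all tested genes were 4.14% and 11.5%.

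Of 7 other pentose phosphate genes tested, none had an unadjusted p under 0.05, and the smallest limma adjusted p was 0.701. It was that of H6pd, the enzyme of the endoplasmic reticulum, at 7.21, 7.497 and 6.72 TPM against 9.43, 18.7 and 6.51 TPM. Rpia, which isomerizes ribose phosphate, was at 7.04, 3.81 and 2.16 TPM against 3.75, 2.64 and 2.70 TPM, and Rbks, a ribokinase, at 1.84, 1.66 and 1.65 TPM against 2.34, 2.36 and 1.502 TPM. The groups overlapped in all 3. Of 12 other HIF regulators, 10 had positive differences (83.33%, median 0.16), against 62.0% and a median of 0.09 over all tested genes, with Vhl, which targets HIF alpha for breakdown, at 15.04, 14.6 and 7.05 TPM against 6.35, 4.39 and 10.2 TPM (limma adjusted p = 0.582). Siah2, which acts on prolyl hydroxylases, was at 11.7, 6.94 and 8.75 TPM against 5.95, 4.32 and 8.68 TPM (limma adjusted p = 0.661). Hif3a, the other HIF alpha subunit, was at 17.8, 21.9 and 11.4 TPM against 14.9, 8.44 and 13.4 TPM (limma adjusted p = 0.703). In these 3 genes the groups overlapped as well. Of 27 other hypoxia targets, 18 were positive (66.67%, median 0.23). Vldlr, a lipoprotein receptor, was at 1.77, 1.34 and 1.999 TPM against 0.72, 0.33 and 0.40 TPM (limma adjusted p = 0.208). Rora, a nuclear receptor, was at 2.22, 2.05 and 1.98 TPM against 1.06, 0.81 and 0.82 TPM (limma adjusted p = 0.284). Plod2, a collagen-modifying enzyme, was at 9.12, 5.90 and 6.30 TPM against 5.20, 3.03 and 3.53 TPM (limma adjusted p = 0.45). In each of these 3 genes every caudal library was above every yolk sac library, but they were chosen by their small p. Of the 27 hypoxia targets, 5 lay so and 2 the other way, against 11.5% and 4.14% of all tested genes.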

How the data were processed

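The submitters' processing notes name HISAT2, StringTie and mm10, with no role stated; for versions, annotation release and strand, the sources used here give nothing. The deposited TPM (a signal scaled per library by the authors) exceeded 1000000 in sum because assembled loci (summing to 1000000) stood beside annotated genes (555230 to 684549). Only annotated genes were used, summed per symbol (47517). Depth is unknown, since TPM keeps none. Genes reaching 1 TPM in 3 libraries were tested with limma 3.58.1 (R 4.3.3) on log2(TPM + 1) with a mean-variance trend. Shares were tested with scipy 1.17.1. On simulated data of this comparison over 16436 genes, 78% of 100 genes changed by 1.5 (log2) and 100% of 100 changed by 3 were recovered, with 15 false calls. The simulation gave a gene the same spread in every library and changed only genes above a set mean level. The real libraries scattered unequally (estimated weights of 0.23 to 4.44), so recovery in them may be lower and was not tested. Copies were found with blastn 2.17.0 on GENCODE M21 transcripts (GRCm38, the assembly of mm10). The members and lists were chosen with earlier results of these data known. Genes whose values are printed by library were Hk1 and Hkdc1 (added after their values were seen), the leading isoenzymes, Pkm, Ldha, members with no overlap or an unadjusted p under 0.05 and members for which yolk sac replicate 2 stood over 2-fold from the other yolk sac libraries; of other pathway genes, the 3 of smallest p in each list. Other settings tried were pseudocounts of 0.1 and 5, omission of the filter, a minimum mean of 10 TPM instead, quantile normalization, annotated genes rescaled to 1000000, a replicate block, array weights and leaving out libraries; the overlap count without yolk sac replicate 2 was added after seeing the data. A few planned genes and enzyme families are not reported here, so shares were adjusted over the 11 families given.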

Additional observations from a re-analysis of the deposited data

How the results depend on the processing

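With 3 libraries of 100 cells per tissue and unknown depth, small differences were not detectable. The test across all genes called 57 as higher in caudal and 6 as higher in yolk sac cells. These counts were 37 and 2 with a pseudocount of 5, 8 and 0 with a minimum mean of 10 TPM, 0 and 0 without a filter (2547 at an unadjusted p under 0.05), 774 and 182 with array weights, 13 and 0 without yolk sac replicates 1 and 2, and 2 to 55 and 0 to 6 when 1 library was left out. Caudal replicates 1, 2 and 3 left out gave 5, 19 and 2 caudal calls, and yolk sac replicates 1 and 3 gave 17 and 16. With the replicate number as a block no gene passed in limma (0 and 0, with 1611 at an unadjusted p under 0.05). The deviations of same-numbered libraries correlated by 0.019, -0.021 and -0.003, and those of differently numbered ones by -0.029 to 0.034. This gives no sign of pairing, but the noise of 100-cell libraries could hide it, so pairing was not excluded. Members higher in the caudal cells numbered 0, with 0 to 1 when 1 library was left out and 5 with array weights.

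Of the 39 tested members, 23 kept their sign in every setting tried and 16 changed it at least once. For quantile normalization this was Pfkm (-0.051), and for rescaled annotated genes P4ha1 (0.01). Array weights gave Hk1 -0.015, Tpi1 0.057, Slc2a1 0.085, Slc16a3 -0.695, Taldo1 0.33, Bnip3 0.019, Bnip3l 0.019 and, outside the members, Siah2 -0.03. Without yolk sac replicates 1 and 2, Hk1 was -0.123, Slc2a1 0.253, Slc16a3 -0.469, Tkt -0.078, Taldo1 0.098, Bnip3 0.286, Bnip3l 0.35, H6pd 0.115 and Rbks 0.12, and the share differences were 0.682 points for Slc16a1 and -7.92 for Egln3. Leaving out 1 library turned the sign within these ranges: Hk1 -0.08 to 0.418, Gpi1 -0.051 to 0.208, Gapdh -0.054 to 0.192, Eno1 -0.17 to 0.008, Slc2a1 -0.577 to 0.185, Slc16a3 -0.074 to 0.904, G6pdx -0.225 to 0.016, Tkt -0.152 to 0.19, Pdk1 -0.229 to 0.024, Bnip3 -0.866 to 0.169, Bnip3l -0.404 to 0.153, Ankrd37 -0.762 to 0.05, P4ha1 -0.331 to 0.3 and Rpia -0.036 to 0.638. The share difference ranged from -1.45 to 3.63 points for Pdk3 and from -6.33 to 7.65 for Egln3. The cause of these changes was not tested.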

Other observations

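Hkdc1, Slc2a2 and Pklr, which are known from liver and gut and lie outside the 43 genes, were highest in yolk sac replicates 1 and 2. Hkdc1 was at 2.65, 47.4 and 0.047 TPM in yolk sac cells (replicates 1 to 3) and at most 0.134 TPM in the caudal cells. Slc2a2, the transporter GLUT2, was at 3.73, 58.5 and 0.23 TPM against 0.042 to 0.153 TPM, and Pklr at 0.31, 7.41 and 0.0035 TPM against at most 0.0052 TPM. In all 3 genes yolk sac replicate 2 was highest and replicate 1 next, the same order as the summed endoderm markers (12670, 714 and 13.1 TPM). None of the 3 reached 1 TPM in 3 libraries, so none was tested, and they were chosen after their values were seen. G6pc, Fbp1 and Pck1, liver enzymes of the same list, stayed near 0 instead. In yolk sac replicates 1 to 3, G6pc was at 0.050, 0 and 0.025 TPM. Fbp1 was at 0, 0 and 0.089 TPM there, and Pck1 at 0, 0.018 and 0 TPM. Whether the endoderm marker levels bear on these values was not tested.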
